A study of Danio rerio with 6 samples.

Results

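Transcripts of 8 regulators of vessel and blood lineages were followed in single cells of the adult zebrafish ventricle: npas4l, etv2, tal1, lmo2, fli1a, erg, gata2a and gata2b. They were found by symbol in the deposited feature lists, and all 8 are among the 27771 genes listed there. The cells came from 6 libraries made by droplet sequencing of transcript 3' ends, each from 15 pooled adult ventricles, with 1 library per group. Wild-type fish (WT) and clofv087b/+ fish, heterozygous for the fv087b allele of cloche (het), were each sampled at sham, 3 days post amputation (dpa) of the heart and 7 dpa. The sham libraries bear that word in their titles and "untreated" in their treatment label. The age beyond adult, the sex and the strain of the fish are not given in the sources used here, and both genotypes shared the dissociation at 4 °C and a sort on Hoechst stain. The title of the series names cloche as a platelet factor of heart regeneration, which makes the level of these genes in thrombocytes and endothelium at each stage the question addressed here.

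Zebrafish npas4l encodes a bHLH-PAS transcription factor and is the gene at the cloche locus; in the zebrafish embryo it acts at the top of the hierarchy that makes endothelial and blood cells and switches on etv2 and tal1. The ETS factors Etv2, Fli1a and Erg drive endothelial identity, Etv2 early and transiently in the embryo, and fli1 is also a regulator of megakaryocytes in mammals. Tal1, a bHLH factor, joins Lmo2, an adaptor that does not bind DNA itself, with LDB1, E proteins and GATA factors in a complex that acts in blood progenitors, erythroid cells and the mammalian megakaryocyte lineage, whose fish counterpart is the nucleated thrombocyte.

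After filtering, 59147 cells with 534794448 unique molecular identifiers (UMIs, counted transcripts) were kept, 8296 to 12448 per library with median depths of 4351.5 to 7663 UMIs. WT libraries were deeper at every stage. The median mitochondrial share was 3.85 to 5.57% in the sham and 7 dpa libraries and 8.92 and 9.78% at 3 dpa. Of the kept barcodes, 398 (0.677%) occurred in more than 1 library. Cells were clustered without the 8 genes and named by marker genes, giving 11 classes, all with the ending -like; 8 clusters with 15958 cells stayed unnamed. The 1716 thrombocyte-like cells carried itga2b and mpl among their leading genes, but the thrombocyte markers selp and gp9 were higher in other classes. With all libraries summed, selp stood at 2141% of its thrombocyte-like level in neutrophil-like and 371.8% in macrophage-like cells. In erythrocyte-like cells gp9 stood at 188.8%. The 7121 endothelial-like cells raised all 9 endothelial markers. Values below are CPM, a gene's UMIs divided by all UMIs of its class in a library and scaled in the usual way, always in the order sham, 3 dpa and 7 dpa. Parentheses after a ratio hold its exact 95% interval, which covers counting error only and not the spread between fish or libraries. In pooled classes, fewer expressing cells and less RNA per cell cannot be told apart.

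Across cell classes, transcripts of etv2, erg and gata2a were highest in endothelial-like cells, and those of tal1, lmo2 and fli1a in thrombocyte-like cells. For these 6 genes the highest class stood above the next in 6 of 6 libraries, and the ranges of both classes over the libraries did not overlap. The mean difference on the log2 scale, after adding 10 CPM, was 2.49 for etv2, 1.49 for gata2a, 1.00 for erg, 1.83 for tal1, 2.31 for lmo2 and 0.84 for fli1a. Each of the 6 had p = 0.03125 in a two-sided exact sign-flip permutation test over libraries, the smallest value 6 pairs allow, and an adjusted p of 0.04167 over the 8 genes in that permutation test. Both classes of each pair were chosen by their mean level in the same libraries. The permutation p does not account for that choice, so it is no independent support for the order. With likely doublets kept the 6 were still higher on average but none passed, the exact permutation test then giving an adjusted p of 0.05 for 5 of them and 0.0833 for erg. For npas4l the difference was 0.09 (higher in 3 of 6 libraries, exact permutation p = 0.375) and for gata2b 0.03 (1 of 6, exact permutation p = 1).

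**Figure D1:**
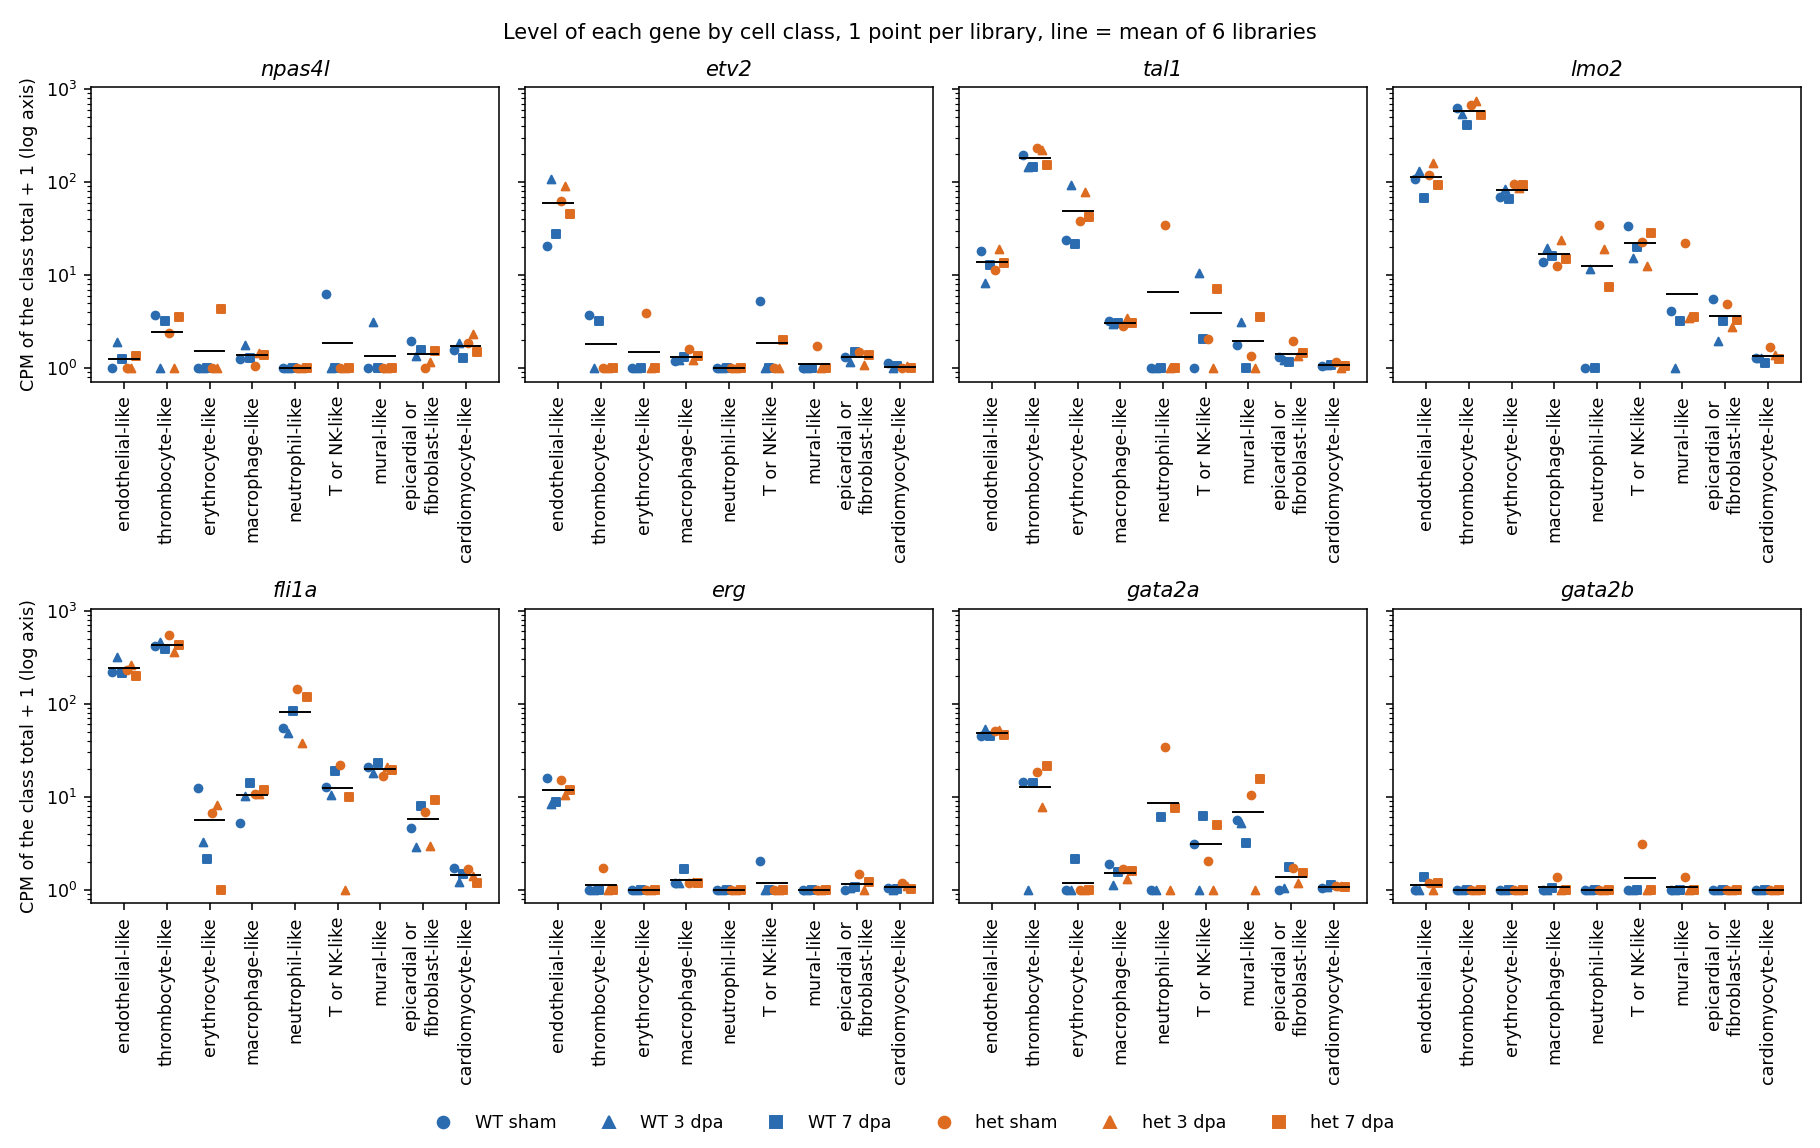
Level of each of the 8 genes in 9 cell classes (CPM of the class total plus 1, log axis). Each point is 1 library (blue WT, orange het; circle sham, triangle 3 dpa, square 7 dpa) and the line is the mean of 6 libraries. The etv2, erg and gata2a points of endothelial-like cells, and the tal1, lmo2 and fli1a points of thrombocyte-like cells, lie above all points of the next class.

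The plot of levels by class shows how narrow the distribution of etv2 (ENSDARG00000053868) was. Of its 1273 UMIs, 89.71% lay in endothelial-like cells, which made up 12.04% of all cells. The mean level there was 58.5 ± 35.3 CPM (SD, n = 6 libraries), against 0.871 CPM in T or NK-like, 0.816 in thrombocyte-like and 0.481 in erythrocyte-like cells. B-like cells, outside the order, had 10 etv2 UMIs in 8 cells, 3.73 CPM on average. Among the lower classes of the order the ranges overlapped, and neutrophil-like cells had no etv2 UMI. For erg (ENSDARG00000077304), 81.23% of 373 UMIs were endothelial-like, with 10.75 ± 3.16 CPM there and at most 0.267 CPM in the 8 other classes of the order, while B-like cells, which had under 20 cells in a library and stand outside it, had 3 UMIs (1.06 CPM on average). The share for gata2a (ENSDARG00000059327) was 71.9% of 1733 UMIs. Its level was 47.8 ± 3.7 CPM in endothelial-like cells, with the smallest spread of the 3 relative to its mean, followed by thrombocyte-like (11.9 ± 7.4), neutrophil-like (7.51 ± 13.02) and mural-like cells (5.82 ± 5.23), whose ranges overlapped.

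The other ETS factor, fli1a (ENSDARG00000054632, 10052 UMIs), was shared between both compartments. It stood at 432 ± 65 CPM in thrombocyte-like and 239 ± 44 CPM in endothelial-like cells. Neutrophil-like cells followed with 80.3 ± 43.0 CPM, above mural-like cells (18.9 CPM) in 6 of 6 libraries without overlap. All remaining classes of the order stayed at or below 11.5 CPM. An unnamed cluster of 1449 cells led by zgc:153704, angptl7 and abi3bpb also had fli1a, at 29.9 CPM, together with gata2a at 15.3 and tal1 at 7.97 CPM.

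The pair tal1 (ENSDARG00000019930) and lmo2 (ENSDARG00000095019) had a different order below the thrombocyte-like maximum. Thrombocyte-like cells were 2.901% of all cells and held 39.26% of the 1615 tal1 UMIs and 24.95% of the 7793 lmo2 UMIs. For tal1 the level fell off in steps, from 181 ± 39 CPM in thrombocyte-like to 48.3 ± 29.0 in erythrocyte-like and 12.9 ± 4.2 in endothelial-like cells, with no overlap between those neighbours. For lmo2 it was 585 ± 119 CPM in thrombocyte-like, 112 ± 31 in endothelial-like and 81.7 ± 12.3 in erythrocyte-like cells. The last 2 classes overlapped, endothelial-like cells being higher in 5 of 6 libraries. T or NK-like (21.1 CPM) and macrophage-like cells (15.7 CPM) came next in the order. B-like cells, too few in 1 library for the order, had a mean of 172 ± 112 CPM, above the endothelial-like mean. Over all libraries summed they had 147 CPM, against 97.4 CPM in endothelial-like cells. Macrophage-like cells, 21.82% of all cells, held 23.88% of all lmo2 UMIs. Their level over all libraries summed, 15.1 CPM, was close to the 14.6 CPM of all kept cells.

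RNA released into the droplet fluid gives UMIs in cells that do not make a transcript, so the class levels were set beside thrombocyte markers. In erythrocyte-like cells itga2b, the thrombocyte integrin, stood at 1.38 CPM (0.154% of its thrombocyte-like level) and mpl, the thrombopoietin receptor, at 1.03 CPM (0.134%), with thbs1b and fermt3b also low (0.2 and 0.806%). The platelet glycoprotein gene gp1bb was at 127 CPM (7.67%), the scarce marker selp at 45.25% and gp9 at 288 CPM (188.8%), above its thrombocyte-like level. Set on the same scale, erythrocyte-like tal1 was at 25.16% and lmo2 at 13.73% of the thrombocyte-like level. In single libraries erythrocyte-like tal1 was 22.9, 91.0 and 20.8 CPM for WT and 37.5, 76.7 and 41.0 CPM for het, on 2 to 43 UMIs. Both 3 dpa libraries were the highest. There, erythrocyte-like cells numbered 354 (WT) and 664 (het), against 36 to 275 in the other libraries, and their median depth was 757 and 620 UMIs. Erythrocyte markers took up 487900, 309900 and 426500 CPM of these sums for WT and 514600, 186100 and 474300 CPM for het. The mitochondrial share was 8.13 and 11.8% at 3 dpa and 2.16 to 3.2% in the other libraries. The CPM of tal1 and lmo2 are shares of the same totals, and the part of this load in them was not tested.

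Shares of cells with a UMI depend on depth and were therefore also computed with cells thinned to 1000 UMIs. Cells with fewer UMIs were left out of the thinned shares but not of the shares before thinning. This left out 1178 erythrocyte-like cells and used 561, against 694 left out and 6427 used in endothelial-like and 249 and 1467 in thrombocyte-like cells. On that scale etv2 was found in 3.77% of endothelial-like cells (10.8% before thinning) and in 0.0355% of macrophage-like cells (0.271%). Thinned tal1 shares were 16.4% of thrombocyte-like, 3.46% of erythrocyte-like and 1.22% of endothelial-like cells (26.8, 7.13 and 4.58% before). For lmo2 they were 41.9% of thrombocyte-like, 8.46% of erythrocyte-like and 7.38% of endothelial-like cells, against 0.0604% of cardiomyocyte-like cells (56.8, 11.5, 18.9 and 0.482% before). For lmo2 in endothelial-like and erythrocyte-like cells the thinned shares thus go against the CPM, and no order of these classes is read from them.

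The cloche gene npas4l (ENSDARG00000116511) was scarce everywhere, with 256 UMIs in 214 of 59147 cells and up to 7 UMIs in a cell. Cardiomyocyte-like cells contributed 46.48% of these UMIs, but this class is deep and large, and its level was only 0.574, 0.849 and 0.27 CPM for WT and 0.851, 1.31 and 0.477 CPM for het. In each genotype the 3 dpa library had the highest of its 3 values and the 7 dpa library the lowest. This order rests on 20, 32 and 11 UMIs for WT and 10, 30 and 16 UMIs for het. At 3 dpa 1 cell held 7 of the 32 WT UMIs and 1 cell 6 of the 30 het UMIs. Endothelial-like cells had 5 npas4l UMIs in all, thrombocyte-like cells 6, and T or NK-like cells 5 UMIs from 1 cell. Thinned to 1000 UMIs, the share of cells with npas4l was 0.0792% in cardiomyocyte-like, 0.183% in thrombocyte-like and 0.0268% in endothelial-like cells. A comparison of npas4l between genotypes or stages within the endothelial-like or thrombocyte-like class was not possible at this depth. The allele's effect on the transcript is not given in the sources used here, so the level of npas4l is no check of the genotype labels.

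In the endothelium, etv2 varied most between libraries of the 6 genes that could be tested there. Its level in endothelial-like cells was 19.3, 107.8 and 26.6 CPM for WT and 62.0, 90.8 and 44.4 CPM for het, on 107 to 338 UMIs. Both 3 dpa libraries were the highest, WT sham was the lowest, and het exceeded WT at sham and 7 dpa but not at 3 dpa, so the genotypes overlapped. On the log2 scale, het sham stood above WT sham by 1.68 (1.36 to 2.01), the pair at 3 dpa gave -0.25 (-0.63 to 0.14) and the pair at 7 dpa 0.74 (0.47 to 1.01). Within genotypes, 3 dpa over sham was 2.48 (2.09 to 2.87) for WT fish and 0.55 (0.23 to 0.86) for het fish. The share of endothelial-like cells with etv2 had the same low point, at 5.73, 16.1 and 7.37% for WT and 17.1, 13.4 and 12.2% for het, although 3 dpa cells were shallower, with medians of 2148 and 2129 UMIs against 2957 to 3685.5 UMIs at sham and 7 dpa.

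Scaling bears on the 3 dpa ratios. With TMM scaling of the class sums, which trims genes of extreme ratio or level before scaling, every 3 dpa over sham ratio in endothelial-like cells dropped by 0.384 in WT and by 0.266 in het on the log2 scale. The etv2 ratio then became 2.10 in WT and 0.29 (-0.03 to 0.60) in het. The genotype ratios moved by less than 0.1.

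**Figure D2:**
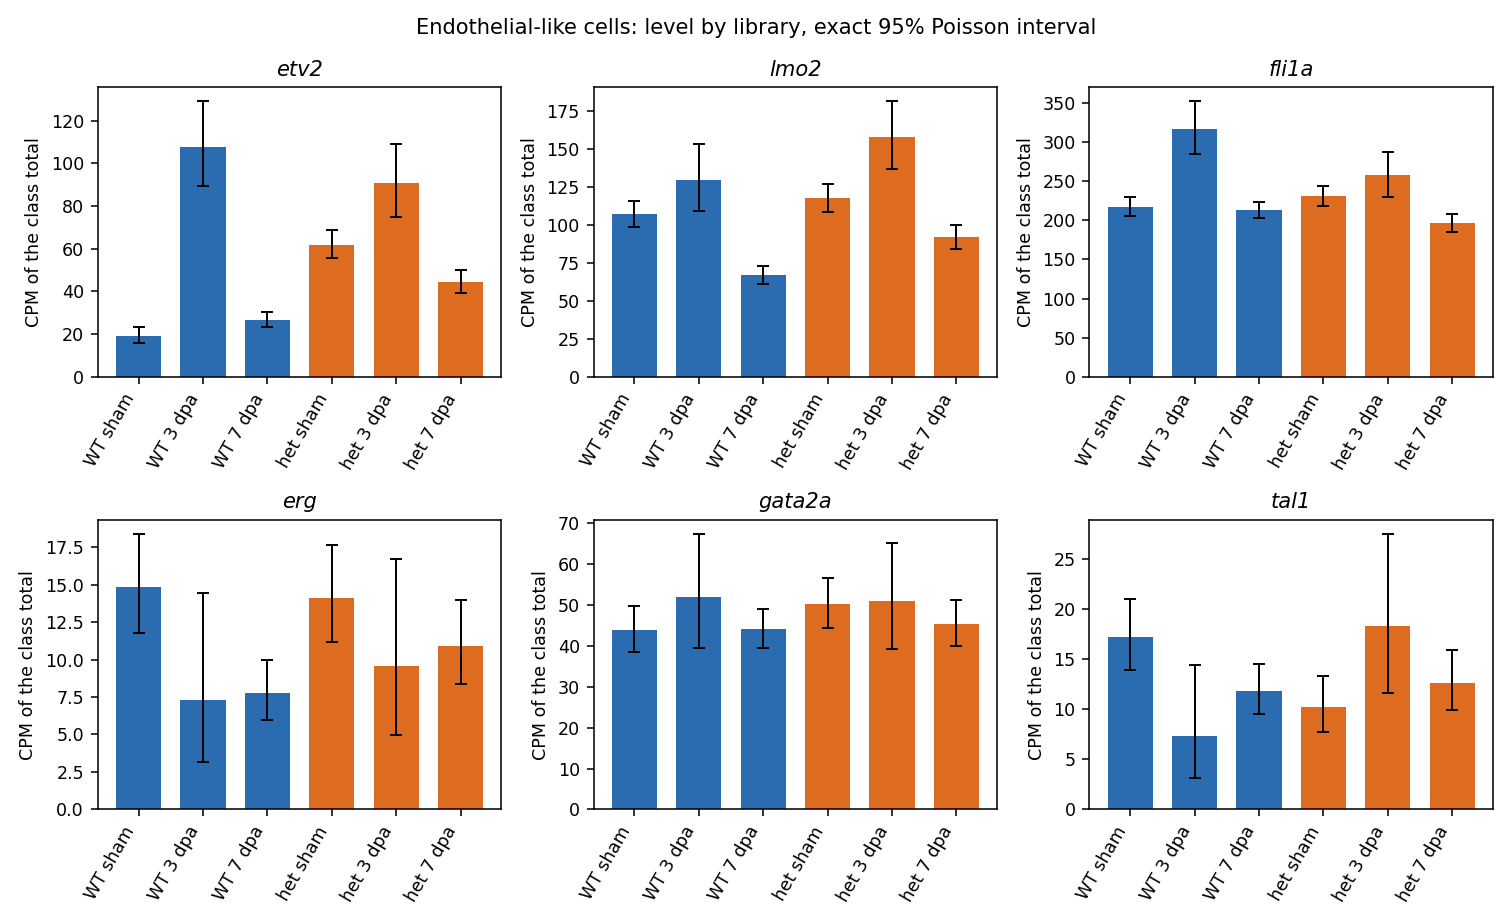
Levels of etv2, fli1a, erg, tal1, lmo2 and gata2a in endothelial-like cells (CPM of the class total), 1 bar per library with the exact 95% Poisson interval, WT in blue and het in orange. The etv2 bars run from 19.3 CPM in WT sham to 107.8 CPM in WT 3 dpa, while the gata2a bars stay between 43.9 and 52.1 CPM.

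The test across all genes was an additive fit of genotype and stage over the 6 libraries (edgeR quasi-likelihood), which asks for a genotype difference common to the stages, or a stage difference common to the genotypes. Of the 8 genes, 6 passed the filter on low counts in endothelial-like cells; npas4l and gata2b did not. None of the 6 was called in any of the 3 comparisons at an adjusted p of 0.05. Between genotypes 0% of the 12414 genes tested were called (0 genes; 884 had an unadjusted p under 0.05, and DESeq2 called 22), between 3 dpa and sham 1.55% (192 genes) and between 7 dpa and sham 0.129% (16 genes). For etv2 the fit gave 0.76 ± 0.31 (SE) for het over WT with an edgeR adjusted p of 0.66, and 1.16 ± 0.39 for 3 dpa over sham with an edgeR adjusted p of 0.158. For 7 dpa over sham it gave -0.10 with an edgeR adjusted p of 0.948.

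The etv2 calls changed when single libraries were left out. Each setting named here also called more genes over all genes tested than the main fit did, as counted in the last section. These calls are therefore no result particular to etv2. Without the WT 3 dpa library the genotype difference was 1.18 (edgeR adjusted p = 0.0145), and without the het 3 dpa library 1.17 (edgeR adjusted p = 0.0464). Without het sham the 3 dpa over sham difference was 1.85 (edgeR adjusted p = 0.0084), and without het 3 dpa 1.80 (edgeR adjusted p = 0.0141). With no filter on low counts that stage difference was 1.11 (edgeR adjusted p = 0.0114). These were 5 of 357 values, each for 1 gene in 1 comparison under another setting, and the other 352 left each call as it was. The 357 cover the genes that passed the filter on low counts in endothelial-like or thrombocyte-like cells, so npas4l and gata2b are not among them. They include refits on endothelial-like clusters.

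The other 2 ETS factors moved less. Levels of fli1a were 217, 317 and 213 CPM for WT and 231, 257 and 196 CPM for het. The WT 3 dpa library was the highest, and the fit gave -0.09, 0.03 and -0.15 for het over WT, 3 dpa over sham and 7 dpa over sham. Levels of erg were 14.8, 7.31 and 7.78 CPM for WT and 14.1, 9.56 and 10.9 CPM for het. Both sham libraries were above all 4 injured ones, a split not counted over all genes. The fitted difference was -1.10 ± 0.36 (SE) at 3 dpa, on 8 and 12 UMIs, and -0.67 ± 0.27 at 7 dpa, and neither passed (edgeR adjusted p = 0.149 and 0.372).

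For the adaptor gene lmo2 the levels were 106.9, 129.8 and 66.7 CPM for WT and 117.5, 157.8 and 91.7 CPM for het. Het was the higher at every stage, by a log2 ratio of 0.14, 0.28 and 0.46 (0.28 to 0.64), and the 7 dpa library was the lowest of each genotype. With TMM scaling the genotype ratio was 0.10 (-0.06 to 0.27) at sham and 0.37 (0.05 to 0.69) at 3 dpa. With cells named one by one the sham ratio was -0.01. In WT sham 1 cell held 45 of the 592 lmo2 UMIs. The genotype fit gave 0.31 (edgeR adjusted p = 0.818) and 7 dpa over sham gave -0.53 ± 0.23 (edgeR adjusted p = 0.393). The WT 3 dpa over sham ratio was 0.28 by class totals and turned to -0.10 with TMM scaling. Levels of tal1 were 17.2, 7.31 and 11.9 CPM for WT and 10.3, 18.3 and 12.7 CPM for het, the 3 dpa libraries being the lowest and the highest of all on 8 and 23 UMIs. The genotype ratio was -0.74 (-1.24 to -0.25) at sham and 1.33 (0.11 to 2.70) at 3 dpa, and the common difference in the fit was -0.02.

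In the class as a whole, transcripts of gata2a had the smallest spread, at 43.9, 52.1 and 44.1 CPM for WT and 50.2, 51.0 and 45.4 CPM for het. All 9 ratios between libraries of 1 genotype or 1 stage had intervals that included 0 and sizes of at most 0.25. The fitted differences were 0.09, -0.19 and -0.08. With fixed weights for the clusters described next, however, WT 3 dpa over sham was 0.59 and WT 7 dpa over 3 dpa -0.52, and TMM scaling turned WT 3 dpa over sham to -0.14 and het 3 dpa over sham to -0.24. Its paralogue gata2b (ENSDARG00000009094), which in the zebrafish embryo marks the endothelium that gives rise to blood stem cells, had 16 UMIs in 10 cells. Of these, 5 UMIs came from 5 endothelial-like cells, all in a cluster of 377 cells led by frzb, vwf and edn2, where they were 1.33% of cells. Another 7 UMIs lay in a macrophage-like cluster, 6 of them in 1 cell.

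Markers of other cell types were present in endothelial-like cells, and their part in these results was not tested. Thrombocyte markers, 7 of 7 detected, summed to 21.5 to 102 CPM, which is 0.291 to 1.64% of their level in their own class; itga2b and mpl were each at 0.445 CPM with all libraries summed. Erythrocyte markers, 8 of 8, summed to 267 to 1475 CPM (0.0548 to 0.528% of their own class), macrophage markers, 7 of 7, to 602 to 1531 CPM and cardiomyocyte markers, 7 of 7, to 2340 to 6076 CPM. In cardiomyocyte-like cells, etv2, lmo2 and fli1a themselves were at 0.442 CPM or less. The mitochondrial share of the summed endothelial-like UMIs was 5.35 and 4.40% at 3 dpa and 2.01 to 2.60% in the other libraries.

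The endothelial-like class joined 3 clusters that used these genes differently. The largest, 5422 cells, was led by spock3, f8 and aqp8a.1 and was named endocardial-like, the endocardium being the inner lining of the heart chamber. Another, 1322 cells, was led by plvapb and plvapa and had all 4 vessel markers, and was named vessel-like. The last was the frzb, vwf and edn2 cluster, which received no further name. In vessel-like cells etv2 stood at 53.3, 210.8 and 87.8 CPM for WT and 98.8, 171.2 and 113.6 CPM for het, a mean of 122.6 ± 58.0. In endocardial-like cells it stood at 12.4, 35.5 and 15.7 CPM for WT and 45.1, 29.8 and 23.1 CPM for het, a mean of 26.9 ± 12.4, below vessel-like cells in 6 of 6 libraries. UMIs of etv2 were found in 25.6% of vessel-like and 6.77% of endocardial-like cells.

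Vessel-like cells also had more lmo2, with little spread: 194, 198 and 190 CPM for WT and 197, 199 and 209 CPM for het. In endocardial-like cells lmo2 was at 75.5, 23.6 and 36.7 CPM for WT and at 65.1, 76.7 and 42.0 CPM for het. Both endocardial-like WT libraries after injury, with 12 UMIs at 3 dpa, and the het 7 dpa library were lower than the remaining 3, and vessel-like libraries lay above all of them. The frzb-led cluster was highest of the 3 in mean lmo2, 270.4 CPM, and in mean tal1, 23.1 CPM, although its libraries ranged from 7.63 to 55.6 CPM for tal1.

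The order was opposite for gata2a, at 54.9 CPM (mean over libraries) in endocardial-like and 37.8 CPM in vessel-like cells, higher in endocardial-like cells in 6 of 6 libraries. Within vessel-like cells its levels were 22.9, 30.7 and 33.9 CPM for WT and 51.0, 45.3 and 43.0 CPM for het, all 3 het libraries lying above all 3 WT libraries. Mean erg was 13.1 CPM in endocardial-like and 5.85 CPM in vessel-like cells, with 1 library the other way. Means of fli1a (243 and 261 CPM) and of tal1 (11.6 and 12.6 CPM) were close. In the exact sign-flip permutation test of vessel-like over endocardial-like cells, the mean log2 difference was 1.80 for etv2, 1.80 for lmo2 and -0.46 for gata2a, each with p = 0.03125, and adjusted over 8 genes in that permutation test p was 0.0833, so none passed. For erg it was -0.54 (exact permutation p = 0.0625) and for fli1a 0.11 (exact permutation p = 0.125).

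**Figure D3:**
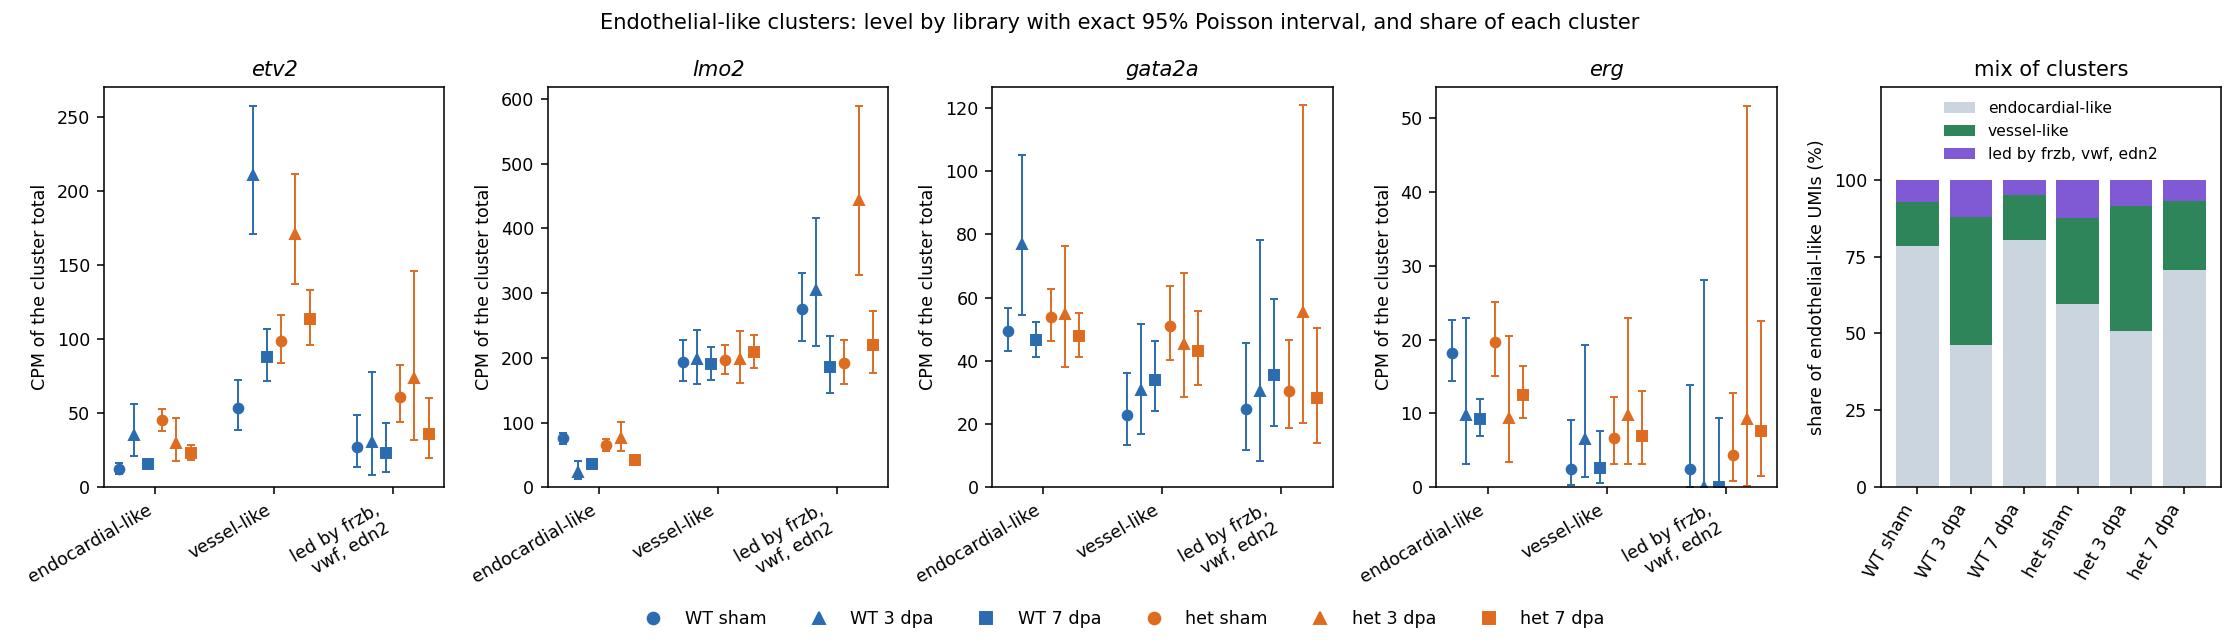
Levels of etv2, lmo2, gata2a and erg in the 3 endothelial-like clusters (CPM of the cluster total, exact 95% Poisson intervals; blue WT, orange het; circle sham, triangle 3 dpa, square 7 dpa) and, at the right, the share of each cluster in the endothelial-like UMIs of a library in percent. Vessel-like etv2 lies above endocardial-like etv2 in each library, and the vessel-like share is 41.6 and 40.5% at 3 dpa against 14.2 to 27.7% in the other libraries.

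The mix of clusters moved with stage and genotype. Vessel-like cells supplied 14.2, 41.6 and 14.7% of endothelial-like UMIs in WT and 27.7, 40.5 and 22.6% for het, so that the share was highest at 3 dpa in both genotypes and above WT in the het sham and 7 dpa libraries. As a share of endothelial-like cells, vessel-like cells were 10.9, 29.6 and 13.3% for WT and 23.2, 21.7 and 25.1% for het, so the het share of cells was lowest at 3 dpa. With each cluster given its mean share of UMIs as a fixed weight in every library (64.4, 26.9 and 8.71%), the log2 ratio of etv2 for WT 3 dpa over sham went from 2.48 to 1.73, for het 3 dpa over sham from 0.55 to 0.23, and for het over WT from 1.68 to 1.30 at sham and from 0.74 to 0.44 at 7 dpa. All 9 etv2 ratios kept their sign. For lmo2 the same weighting turned het over WT at sham from 0.14 to -0.16 and WT 3 dpa over sham from 0.28 to -0.39.

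Within clusters, the genotype ratio of etv2 at sham was 1.86 (1.40 to 2.34) in endocardial-like cells, 0.89 (0.39 to 1.42) in vessel-like cells and 1.16 (0.18 to 2.27) in the frzb-led cluster, so all 3 had more etv2 in het sham than in WT sham. At 3 dpa the ratios were -0.25 and -0.30 in endocardial-like and vessel-like cells and 1.28 (-0.62 to 3.46) in the frzb-led cluster, on 8 and 4 UMIs, with intervals that included 0. At 7 dpa they were 0.55 (0.13 to 0.98) and 0.37 (-0.003 to 0.75), and 0.65 (-0.66 to 2.04) in the frzb-led cluster. The WT 3 dpa over sham ratio was 1.51 (0.65 to 2.30) in endocardial-like and 1.98 (1.45 to 2.54) in vessel-like cells. In het the corresponding values were -0.60 (-1.37 to 0.09) and 0.79 (0.39 to 1.18), and for 7 dpa over sham -0.97 (-1.36 to -0.58) and 0.20 (-0.14 to 0.54).

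**Figure D4:**
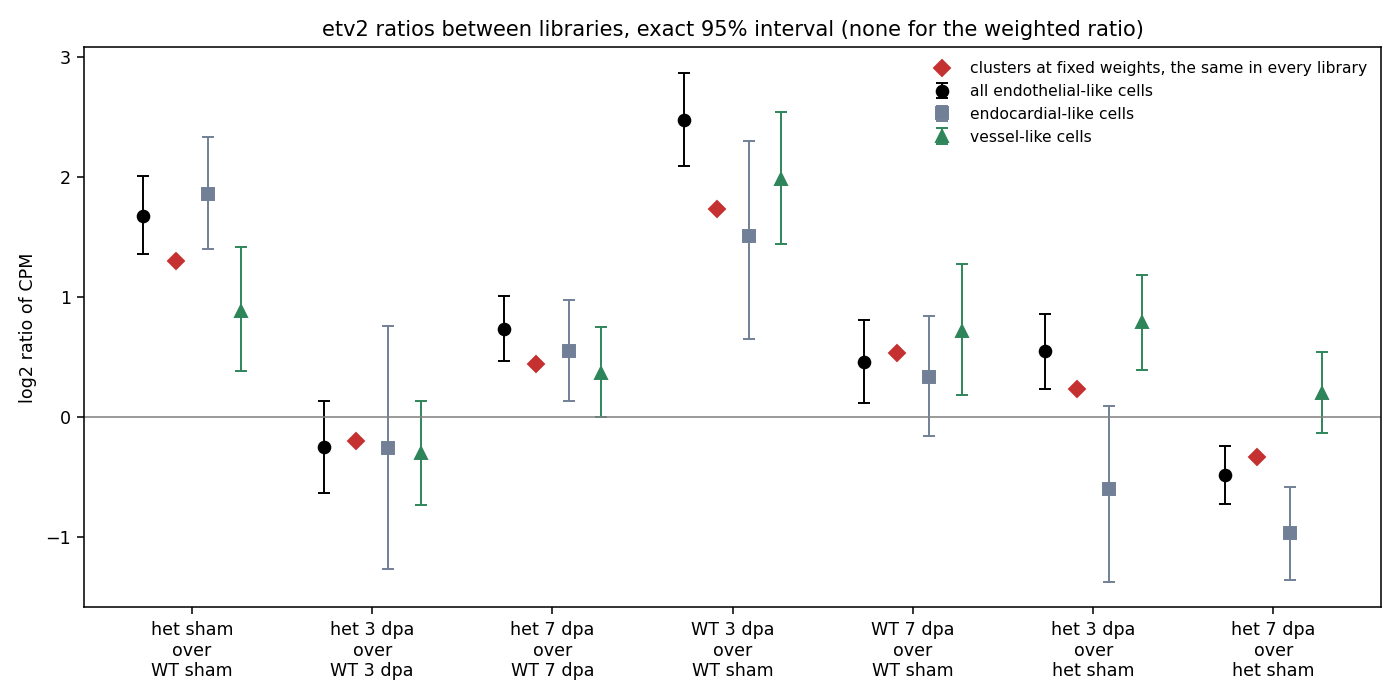
Log2 ratio of etv2 between libraries for het over WT at each stage and for each injured stage over sham in each genotype. Circles are all endothelial-like cells, squares endocardial-like and triangles vessel-like cells, with exact 95% intervals; diamonds give the class with each of its 3 clusters at 1 fixed weight (64.4, 26.9 and 8.71%) in every library and have no interval. The het sham over WT sham and WT 3 dpa over WT sham ratios are above 0 in all 4 forms, and the het 7 dpa over het sham ratio is -0.97 in endocardial-like and 0.20 in vessel-like cells.

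The additive fit was repeated on both clusters, an alternative added with the data in view, and none of the genes tested there passed. In endocardial-like cells 6 of the 8 genes were tested, beside 0.091% of 10994 genes called between genotypes, 1.58% between 3 dpa and sham and 2.42% between 7 dpa and sham. The largest difference was -1.21 ± 0.43 (SE) for erg at 3 dpa (edgeR adjusted p = 0.188). Others were 0.96 ± 0.30 for etv2 in het over WT (edgeR adjusted p = 0.347), -0.89 ± 0.33 for lmo2 at 7 dpa (edgeR adjusted p = 0.199) and -0.85 ± 0.27 for erg at 7 dpa (edgeR adjusted p = 0.132). In vessel-like cells 5 were tested, beside 0% of 7062 genes called between genotypes (0 genes; 336 had an unadjusted p under 0.05, and DESeq2 was not run on clusters), 4.23% between 3 dpa and sham and 0.17% between 7 dpa and sham. There etv2 at 3 dpa had 1.00 ± 0.36 (edgeR adjusted p = 0.153) and gata2a in het over WT had 0.69 ± 0.31 (edgeR adjusted p = 0.999).

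Thrombocyte-like cells numbered 199, 58 and 259 in WT and 666, 76 and 458 in het, so the 3 dpa values rest on few cells. Levels of lmo2 were 620, 537 and 414 CPM for WT and 668, 751 and 521 CPM for het. By clusters, het was above WT at each stage and WT 7 dpa was the lowest library. The ratio of het over WT was 0.11 (-0.10 to 0.32), 0.48 (0.01 to 0.97) and 0.33 (0.08 to 0.59), the last turning to -0.026 with doublets kept, and 7 dpa over sham was -0.58 (-0.87 to -0.30) for WT fish and -0.36 (-0.53 to -0.19) in het. Levels of tal1 were 196, 144 and 146 CPM for WT and 232, 218 and 151 CPM for het, with sham the highest library of each genotype. The 7 dpa over sham ratio of tal1 was -0.42 (-0.93 to 0.08) for WT fish and -0.62 (-0.94 to -0.32) in het. The lmo2 order depended on how cells were named: with each cell named by its own markers in place of its cluster, het over WT was -0.53 at sham and 1.80 at 3 dpa, and WT 3 dpa over sham went from -0.21 to -2.24. For tal1 that naming gave -0.08 for het over WT at sham (0.24 by clusters) and -1.63 for WT 3 dpa over sham (-0.44 by clusters).

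Levels of fli1a were 419, 460 and 390 CPM for WT and 542, 355 and 429 CPM for het. Het sham was the highest and het 3 dpa the lowest library, and the genotype ratios by stage were 0.37 (0.12 to 0.63), -0.37 (-0.97 to 0.22) and 0.14 (-0.13 to 0.41). With cells named one by one the 3 dpa ratio turned to 1.49 and the 7 dpa ratio to -0.17, and WT 3 dpa over sham turned from 0.14 to -1.95. Only tal1, lmo2 and fli1a passed the filter on low counts in this class, and the additive fit called none of them. It called 0.462% of 4544 genes between genotypes, 2.49% between 3 dpa and sham and 0.902% between 7 dpa and sham. For het over WT the fitted differences were 0.26 for tal1, 0.32 for lmo2 and 0.11 for fli1a (edgeR adjusted p = 0.999, 0.981 and 0.999). For 7 dpa over sham they were -0.50, -0.44 and -0.21 (edgeR adjusted p = 0.579, 0.657 and 0.923). The class had 2 etv2 UMIs in all, and gata2a was at 13.6, 0 and 13.1 CPM for WT and at 17.6, 6.8 and 20.2 CPM for het on 0 to 25 UMIs.

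**Figure D5:**
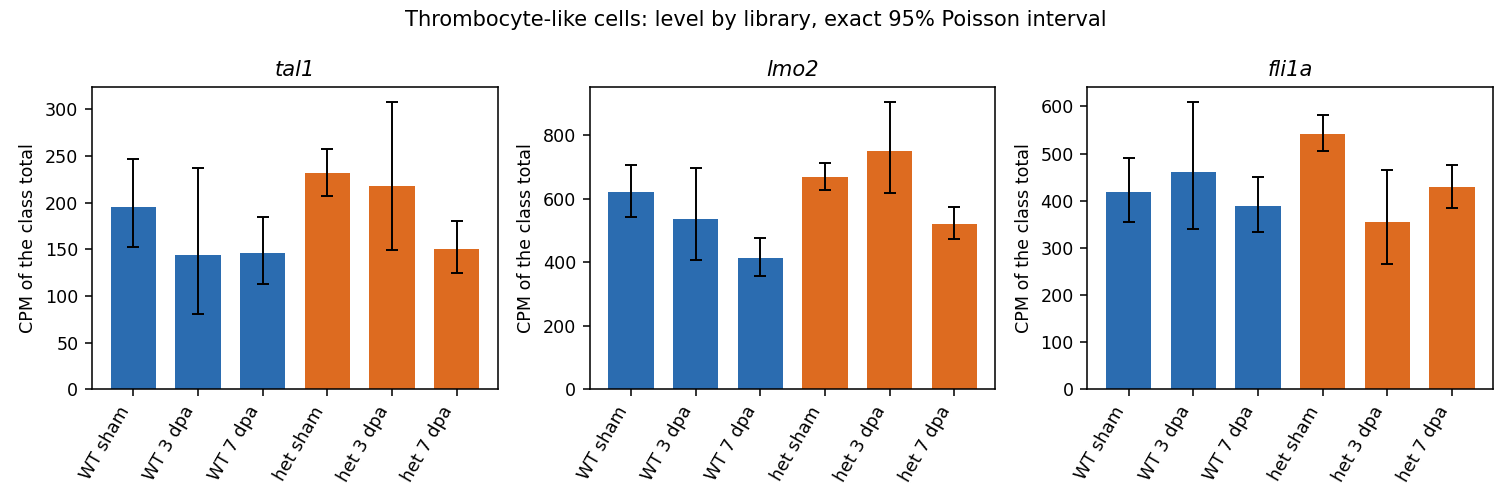
Levels of tal1, lmo2 and fli1a in thrombocyte-like cells (CPM of the class total), 1 bar per library with the exact 95% Poisson interval, WT in blue and het in orange. The lmo2 bars run from 414 CPM in WT 7 dpa to 751 CPM for het 3 dpa, and the 3 dpa intervals, from 58 and 76 cells, are the widest.

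Markers of other types in thrombocyte-like cells were again measurable, and their part in the results was not tested. Endothelial markers, 9 of 9 detected, summed to 111 to 220 CPM, and erythrocyte markers, 8 of 8, to 579 to 3544 CPM (0.119 to 0.831% of their own class). Neutrophil markers, 5 of 6 with cpa5 at 0, summed to 65.5 to 781 CPM and macrophage markers, 7 of 7, to 553 to 1514 CPM. For mural markers, 8 of 8, the sum was 2450 to 3211 CPM. Cardiomyocyte markers, 7 of 7, had the largest sum in every library, at 11170, 7918 and 12310 CPM for WT and 3840, 7056 and 8507 CPM for het. The thrombocyte markers themselves summed to 6230 to 7755 CPM in this class.

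Within single cells the genes were often found together, but cells with one gene were also deeper. Of 768 endothelial-like cells with etv2, 33.6% had lmo2 and 60.8% fli1a, against 17.1 and 46.4% of cells without etv2, at median depths of 4492 and 3108 UMIs. Fewer of the same cells had gata2a (20.6%, against 13.6% without etv2) or tal1 (7.03%, against 4.28%). Of 460 thrombocyte-like cells with tal1, 67.4% had lmo2, against 52.9% of those without (2108.5 and 1648.5 UMIs). The part of depth in these differences was not tested.

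Across the 62 sums of a class and a library with at least 20 cells, Pearson correlations described which genes had the most similar pattern. They used the log2 of CPM after adding 10 CPM. The sums share libraries and depth, and the values are descriptions. Closest to etv2 were bcl6b (r = 0.97), rca2.2 and abcc2 (both 0.96). Closest to erg were tspan13b, si:dkeyp-97a10.2 and bean1 (all 0.95), and closest to gata2a were edn2 (0.85), tmem108 (0.84) and cadps2 (0.83). For tal1 they were gp1bb (0.95), a thrombocyte marker used to name the class, the erythroid and thrombocyte factor gata1a (0.94) and zgc:172143 (0.92). For lmo2 they were spns2 (0.83), tal1 (0.82) and tfdp2 (0.80), and for fli1a afap1l1b (0.93), arhgef9b (0.90) and sele (0.89). The best value for npas4l was 0.58, with nefla. Among the 8 genes the closest pairs were erg with etv2 (0.88) and lmo2 with tal1 (0.82), and npas4l with etv2 had -0.01. Both npas4l values rest on levels near the floor. The highest npas4l mean in the class order was 1.47 CPM, and all 5 T or NK-like npas4l UMIs came from 1 cell.

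Another 4 lists of related genes gave the setting. Over all genes tested, 0, 1.55 and 0.129% were called in endothelial-like cells for het over WT, 3 dpa and 7 dpa over sham. In thrombocyte-like cells these shares were 0.462, 2.49 and 0.902%. At such shares, few or no calls in lists this small are no result about the lists. How many of all genes were highest in each class was not counted. Counts of list genes by highest class are therefore descriptions only. Among 17 other vessel transcription factors, 9 were highest in endothelial-like cells, such as sox7 at 327.5 CPM and epas1b at 606 CPM, while fli1b was highest in T or NK-like cells (132 CPM; 72.8 in endothelial-like and 5.27 in thrombocyte-like cells). Of 16 tested in endothelial-like cells 0 were called between genotypes, 1 higher at 3 dpa and 0 at 7 dpa, with median log2 differences of 0.04, 0.06 and -0.06 (all genes 0.01, 0.01 and -0.01). The 1 was epas1a, a hypoxia-inducible factor, at 12.5, 42.0 and 31.0 CPM for WT and 13.2, 54.2 and 24.8 CPM for het. Both sham libraries were the lowest, and the 3 dpa difference was 1.59 ± 0.29 (SE; edgeR adjusted p = 0.0342). The call was lost without het sham (edgeR adjusted p = 0.0549) and with cells named one by one (0.0978). This gene was highest in mural-like cells (228 CPM), and mural markers, 8 of 8 detected, summed to 203, 251 and 263 CPM for WT and 205, 432 and 344 CPM for het endothelial-like cells; their part in the result was not tested.

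Among uncalled vessel factors, klf2a, a flow-responsive factor, had -1.13 at 3 dpa (edgeR adjusted p = 0.0597), at 362, 184 and 276 CPM for WT and 327, 213 and 361 CPM for het. The values for foxc1b and sox17 were -1.10 and 1.65 (edgeR adjusted p = 0.0789 and 0.237), and for het over WT sox18 had 0.86 and ets1 -0.67 (edgeR adjusted p = 0.571 and 0.62). In thrombocyte-like cells 3 of the 17 were tested (medians -0.43, -0.74 and -0.67 for het over WT, 3 dpa and 7 dpa, against 0.00, -0.01 and -0.03 for all genes). Of these klf2a was called lower at 3 dpa, beside 2.49% of all genes called. It stood at 269, 86.3 and 139 CPM for WT and 162, 88.7 and 116 CPM for het, a difference of -1.34 ± 0.34 (SE; edgeR adjusted p = 0.0353). The call was lost without WT sham (edgeR adjusted p = 0.277), WT 3 dpa (0.173) or het sham (0.0525), by class totals (0.0918), with cells named one by one (0.501) and with doublets kept (0.36).

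Of 12 vessel genes that are no class marker, 9 were highest in endothelial-like cells; all 12 were tested there and none was called (medians -0.06, -0.05 and -0.01). The VEGF receptor gene flt4 had 1.62, the junction gene cldn5a 1.13, ecscr -1.29 and the angiopoietin receptor gene tek -1.05 at 3 dpa (edgeR adjusted p = 0.159, 0.0688, 0.0603 and 0.0993). In thrombocyte-like cells 3 were tested and myct1a was called lower at 3 dpa, beside 2.49% of all genes called. It stood at 84.2, 19.2 and 89.2 CPM for WT and 154, 54.6 and 101 CPM for het, with 2 and 8 UMIs at 3 dpa, a difference of -1.76 ± 0.45 (SE; edgeR adjusted p = 0.0374). Without WT 3 dpa the edgeR adjusted p was 0.0685, without het sham 0.433, by class totals 0.0857, with cells named one by one 0.236 and with doublets kept 0.304.

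Of the 14 blood transcription factors in the files, 5 were highest in thrombocyte-like cells, among them nfe2 at 216 ± 39 CPM, gata1a at 110 ± 38 CPM and gfi1b at 49.7 CPM. None was called, of 5 tested in endothelial-like and 7 in thrombocyte-like cells, where cbfb, the partner of Runx1, had 1.66 and gfi1b -1.45 at 3 dpa (edgeR adjusted p = 0.0513 and 0.204) and spi1b had 1.20 for het over WT (edgeR adjusted p = 0.369). Of 10 genes for protein partners, 7 were highest in thrombocyte-like cells, such as ldb1b (36.2 CPM), while the E-protein gene tcf12 was highest in endothelial-like cells (162 CPM). As for the other lists, the share of all genes highest in a class was not counted. None of the 10 tested in endothelial-like or the 4 tested in thrombocyte-like cells was called in any comparison, and their medians in endothelial-like cells were 0.05, -0.04 and -0.11. Over all genes at most 1.55% (endothelial-like) and 2.49% (thrombocyte-like) were called in a comparison, so the lack of calls in these lists says little.

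In the RefSeq annotation (assembly GRCz12tu, used for names and overlaps), etv2 overlaps caspa, erg overlaps klhl35 and gata2a overlaps pbrm1, and the strand used in counting is not given in the sources used here. The partner of etv2 was highest in macrophage-like cells (119.9 CPM) and at 4.83 CPM in endothelial-like cells, klhl35 was at 0.363 CPM or less, and pbrm1 was at 4.55 CPM in endothelial-like cells. Reads shared with these neighbours cannot be told apart from the genes' own.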

How the data were processed

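Members and gene lists were chosen with earlier results of these data known. The deposited values are unnormalised UMI counts of each gene in each barcode, made by the authors with Cell Ranger 3.0.2 on GRCz11, Seurat 3.1.4 also being named, per the submitters' processing notes, and the rule for calling cells is not given in the sources used here. Cells with at least 200 genes, 500 UMIs and at most 30% mitochondrial UMIs were kept, and the barcodes with the highest Scrublet scores (scanpy 1.11.5) were removed, 0.8% per 1000 barcodes. Clusters (Leiden, resolution 1, 15 neighbours, 30 components of 2000 variable genes, without the 8 genes) took the class whose markers had a mean log2 fold of at least 0.75, 0.5 above the next, with 3 markers raised at least 2-fold in at least 10% of cells. Rebuilt names may differ from the study's.

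UMI counts were summed per class and library and fitted with edgeR 4.0.16 (R 4.3.3; TMM, genotype plus stage, 2 residual degrees of freedom, Benjamini-Hochberg over all genes tested, threshold 0.05). The labels name 1 library of pooled ventricles per group, so no group is tested alone. An edgeR p-value sets a common genotype or stage difference against the departure of the 6 libraries from an additive pattern. Ratios carry exact conditional binomial intervals. The class order used the 9 classes that had 20 or more cells in each library. Named genes were the 8 members, the 3 genes most correlated with each member of at least 200 UMIs, and at most 4 per list, those past the test first. The fits were tested on simulated data. The naming limits follow earlier work on these clusters. Alternatives were other scalings, doublets kept, cells named one by one, a stricter filter (1000 UMIs, 15% mitochondrial), no filter on low counts, DESeq2 1.42.0 and each library left out. No sequences are shown.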

Additional observations from a re-analysis of the deposited data

Results flagged for a closer look

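In endothelial-like cells, the log2 ratio of etv2 for 7 dpa over sham was above 0 in WT, at 0.46 (0.12 to 0.81), and below 0 in het, at -0.48 (-0.72 to -0.24). The ratio of tal1 for 3 dpa over sham was -1.23 (-2.48 to -0.19) for WT fish and 0.84 (0.07 to 1.56) for het fish. Both pairs stand out because, in the class as a whole, the only library of each genotype moved the opposite way. Not every cluster did so. For etv2 only endocardial-like cells did. Vessel-like etv2 rose in both genotypes (53.3 to 87.8 CPM for WT, 98.8 to 113.6 CPM for het), and frzb-led etv2 fell in both. For tal1 vessel-like and frzb-led cells did, but each had only 1 tal1 UMI in WT 3 dpa. In vessel-like cells the 3 dpa over sham ratio was -2.79 (-8.21 to -0.04) for WT and 1.35 (0.10 to 2.57) for het. In frzb-led cells it was -0.70 (-6.26 to 2.46) for WT and 1.67 (-0.03 to 3.20) for het. Both frzb-led intervals included 0. Endocardial-like tal1 fell in both genotypes (17.95 to 11.8 CPM for WT, 9.21 to 7.83 CPM for het), on 6 and 5 UMIs at 3 dpa. The difference between the genotypes was not tested, since each ratio rests on 1 library per group. The tal1 values rest on 8 and 23 UMIs at 3 dpa. With TMM scaling the tal1 ratio in het was 0.57 (-0.20 to 1.29).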

How the results depend on the processing

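Of the members' ratios between libraries, 87 of 96 stayed inside their own counting interval under TMM scaling (10 changed sign), 86 of 96 with median-of-ratios factors (10), 88 of 96 with doublets kept (12), 93 of 94 with the stricter cell filter (7), 66 of 89 with cells named one by one (20) and 87 of 87 without the cell with the most UMIs in each library (1). Of the changes of sign, those whose interval had left out 0 were lmo2 for WT 3 dpa over sham in endothelial-like cells, at -0.10 with TMM and -0.14 with median-of-ratios factors, and lmo2 for het over WT at 7 dpa in thrombocyte-like cells, at -0.026 with doublets kept. The cause was not tested. Counts of genes called also depended on the setting. For endothelial-like het over WT they were 1 by class totals, 22 by DESeq2, 154 without the filter on low counts and 12 to 298 with a library left out. For 3 dpa over sham these were 576, 345, 965 and 304 to 894. For 7 dpa over sham they were 48, 69, 462 and 42 to 761, with 7 when doublets were kept and 2 under the stricter filter. In thrombocyte-like cells het over WT gave 6 by class totals, 1 by DESeq2, 0 with doublets kept (138 at an unadjusted edgeR p under 0.05), 13 under the stricter filter and 2 to 76 with a library left out. For 3 dpa over sham these were 56, 36 and 0 (696 unadjusted), with 200 unfiltered and 53 to 206 with a library left out. For 7 dpa over sham the counts were 21, 16, 5, 66 unfiltered and 13 to 140. The 6 genes above their next class became 0 with doublets kept, where 5 had an exact permutation adjusted p of 0.05, and 0 with any library left out, since 5 pairs allow no permutation p below 0.0625. Replicates could not be paired between groups because the labels give no replicate numbers and each group is 1 library. The permutation tests paired classes or clusters of the same library. Depth limits npas4l, gata2b and every 3 dpa value of erg and tal1 in endothelial-like cells.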
